A study of Mus musculus with 12 samples.

Results

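The members are 6 genes of STAT transcription factors (Stat2, Stat3, Stat4, Stat5a, Stat5b and Stat6) and 3 genes of their feedback inhibitors (Cish, Socs1 and Socs3), 9 of the 23479 gene symbols counted. They were taken by gene symbol, without use of measured values, and all 9 passed the filter on low counts that left 10981 genes for testing. RNA came from CD4+ T cells that were enriched from mouse spleen by removal of other cells. The wild-type group (WT) came from C57BL/6J mice and the knockout group (KO) from Sirt2-/- mice, which lack the NAD-dependent deacetylase SIRT2 and are labelled with a C57BL/6 background. RNA was taken from unstimulated cells, which the labels call naïve (0 h), or after 24 h on plate-bound antibody to CD3 at 5 µg/ml, given with no other antibody or cytokine named, in medium with serum. There were 3 libraries in each of the 4 groups. The labels do not say whether these came from separate mice, so p-values measure the spread between libraries, which may be technical. The sources used here state neither the age of the mice nor which part of Sirt2 was removed.

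Cytokine receptors of T cells carry JAK kinases, which phosphorylate STAT proteins. Phosphorylated STATs pair through their SH2 domains, enter the nucleus and activate target genes, commonly at sites in which TTC and GAA are parted by a few bases. SOCS proteins and CISH are among the targets. They bind the receptors or the kinases and damp the signal, which makes their RNA a common readout of recent STAT activity. Each STAT is tied to its own cytokines. STAT2 acts with IRF9 after type I interferon, STAT3 after cytokines of the interleukin-6 and interleukin-10 families, STAT4 after interleukin-12, the STAT5 pair after interleukin-2 and interleukin-7, and STAT6 after interleukin-4. These proteins are controlled by phosphorylation, which RNA levels do not measure.

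The windows around the start sites of Cish, Socs1, Socs3 and Stat2 are shown. Socs1, Stat2 and Cish had the 3 largest rises from 0 h to 24 h, Cish differed between genotypes at 0 h, and Socs3 is the remaining feedback gene. Each window holds a match to a STAT or interferon motif, which was part of the choice. In WT Stat5a and Stat5b rose more than Socs3, but their windows hold no match and are not shown. The windows are from RefSeq on GRCm38.p6, 300 bases each, from 250 bases before the annotated start to 50 after it. Capitals mark matches to TTCNNNGAA (the classical STAT spacing), TTC and GAA parted by 4 bases (the spacing preferred by STAT6), or GAAA and a second GAAA parted by 2 bases (the core of the interferon-stimulated response element, ISRE), each searched on both strands.
Cish (chr9:107296409-107296708, plus strand): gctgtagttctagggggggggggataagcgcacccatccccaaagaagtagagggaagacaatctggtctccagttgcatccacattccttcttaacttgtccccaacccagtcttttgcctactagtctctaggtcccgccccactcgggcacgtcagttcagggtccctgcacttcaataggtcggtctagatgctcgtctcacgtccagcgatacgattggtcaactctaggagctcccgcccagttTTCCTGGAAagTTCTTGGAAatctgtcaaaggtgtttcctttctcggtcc
Socs3 (chr11:117969317-117969616, minus strand): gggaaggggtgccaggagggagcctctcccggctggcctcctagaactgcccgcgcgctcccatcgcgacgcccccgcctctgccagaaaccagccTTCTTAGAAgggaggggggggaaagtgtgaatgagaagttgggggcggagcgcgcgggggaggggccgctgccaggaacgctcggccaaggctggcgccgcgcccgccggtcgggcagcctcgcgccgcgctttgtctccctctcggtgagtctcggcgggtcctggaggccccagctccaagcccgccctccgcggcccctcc
Socs1 (chr16:10785487-10785786, minus strand): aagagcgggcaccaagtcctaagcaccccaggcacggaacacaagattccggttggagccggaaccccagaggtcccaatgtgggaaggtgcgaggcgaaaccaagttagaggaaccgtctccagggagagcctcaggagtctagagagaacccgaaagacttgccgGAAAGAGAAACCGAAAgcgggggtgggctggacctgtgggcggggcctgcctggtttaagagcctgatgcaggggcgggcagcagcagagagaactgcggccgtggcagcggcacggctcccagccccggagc
Stat2 (chr10:128270248-128270547, plus strand): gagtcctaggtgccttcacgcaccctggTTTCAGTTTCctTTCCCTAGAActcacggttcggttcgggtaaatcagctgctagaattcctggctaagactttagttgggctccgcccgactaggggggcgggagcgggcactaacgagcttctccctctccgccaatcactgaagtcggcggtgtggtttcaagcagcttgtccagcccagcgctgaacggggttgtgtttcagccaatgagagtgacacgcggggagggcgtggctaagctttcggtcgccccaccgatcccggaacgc
The Cish window holds 2 copies of TTCNNNGAA side by side, at bases 251 and 262 of the window, and the Socs3 window holds 1. Of all 32851 RefSeq windows of this length, 8.30% hold this motif and 0.457% hold 2 or more copies. Socs1 has 2 overlapping copies of the ISRE core, at bases 168 and 174, and Stat2 has 1 copy on the opposite strand, followed by 1 match with the spacing of 4 bases. The ISRE core is in 3.44% of all windows, with 2 or more copies in 0.225%, and the spacing of 4 bases is in 6.95%. All 9 members matched the table, with 12 windows. Among the other members 1 of the windows of Stat4 holds the ISRE core, and no window of Stat3, Stat5a, Stat5b or Stat6 holds any of these letters. A match is a run of letters and was not measured as a binding site.

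Stat3, Stat5a and Stat5b are direct neighbours on chromosome 11 in the GENCODE mouse annotation (GRCm38), with no other coding gene between them. Stat5a and Stat5b lie head to head 8626 bases apart. They arose by duplication, and 8.52% of the 50-base windows of Stat5a transcripts and 10.98% of those of Stat5b also occur in transcripts of other genes, nearly all in each other. The files list reads that align to several places apart from the genes, so the split between the pair rests mainly on their other parts. For Stat4 21.7% and for Cish 9.35% of such windows also occur in other transcripts, nearly all of predicted genes that the count files do not list, so how reads there were counted is uncertain. Exons of Stat3 and Stat5a overlap by 72 bases on opposite strands, and exons of Stat6 and Nab2 by 40. No source used here states the strand setting of the counting, so reads in these overlaps are uncertain.

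Gene reads per library ranged from 3.63 to 10.0 megareads. They were lowest in KO 24 h, at 3.63 to 5.33 megareads, against 4.68 to 8.02 in WT 24 h. Members had from 155 to 3876 reads per library. Sirt2 was low in every KO library, at 9.04 to 16.2 CPM at 0 h against 67.9 to 85.4 CPM in WT, and at 9.52 to 19.7 CPM at 24 h against 62.3 to 76.3 CPM. CPM are counts for each megaread of library, after scaling by trimmed mean of M-values (TMM). Markers of CD4+ T cells (Cd3d, Cd3e, Cd3g, Cd4 and Cd28) summed to 2119 to 5696 CPM per library. Markers of CD8 T cells, B cells, myeloid cells and NK cells summed to at most 40.7 CPM per list and library. The erythroid markers Hba-a1 and Hbb-bt had no read, and the sum of 3 erythroid markers was at most 0.173 CPM.

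After 24 h on antibody to CD3 the RNA of 7 of the 9 members was higher than at 0 h, in WT and in KO cells. No culture of 24 h without the antibody is among the samples, so stimulation and time in culture cannot be told apart in any comparison of 24 h with 0 h. In both genotypes Socs1, Stat2, Cish, Stat5a, Stat5b, Socs3 and Stat3 rose, Stat4 and Stat6 did not pass the test, and no member fell. Over all genes tested, 20.2% rose and 20.5% fell in WT, and 19.4% rose and 21% fell in KO. Libraries of 24 h and 0 h did not overlap for 7 members in WT and 8 in KO, all of them higher at 24 h, while over all genes 24.6% were higher and 24.8% lower without overlap in WT and 23.9% and 25.5% in KO. The median log2 fold change of the members was 0.85 in WT and 0.81 in KO, beside 0.00 over all genes in each. In bulk RNA, a change in the number of cells of a type and a change in RNA per cell cannot be told apart. The threshold for passing was an adjusted p of 0.05 in edgeR's quasi-likelihood (QL) test, with Benjamini-Hochberg (BH) adjustment over all 10981 genes. Fold changes are log2 values of that fit, each with its standard error (SE).

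Other RNA moved over time too. Markers of CD4+ T cells summed to 4817 to 5696 CPM over the 6 libraries of 0 h and to 2119 to 2520 CPM over the 6 of 24 h, and 4 of the 5 fell in WT and 5 of 5 in KO. Markers of B cells summed to 16.1 to 29.2 CPM at 0 h and 2.93 to 7.22 CPM at 24 h, and those of NK cells to 23.3 to 40.7 CPM and 2.81 to 7.67 CPM. Those of CD8 T cells summed to 17.3 to 35.8 CPM at 0 h and 8.09 to 14.7 CPM at 24 h. The sums of myeloid markers overlapped between times, at 6.46 to 12.05 CPM at 0 h and 1.95 to 9.30 CPM at 24 h. The ribosomal RNA precursor Rn45s took 12.5% to 17.5% of gene reads at 0 h and 7.95% to 9.55% at 24 h. Their part in the changes of the members was not tested, and leaving Rn45s out changed no call of a member.

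**Figure D1:**
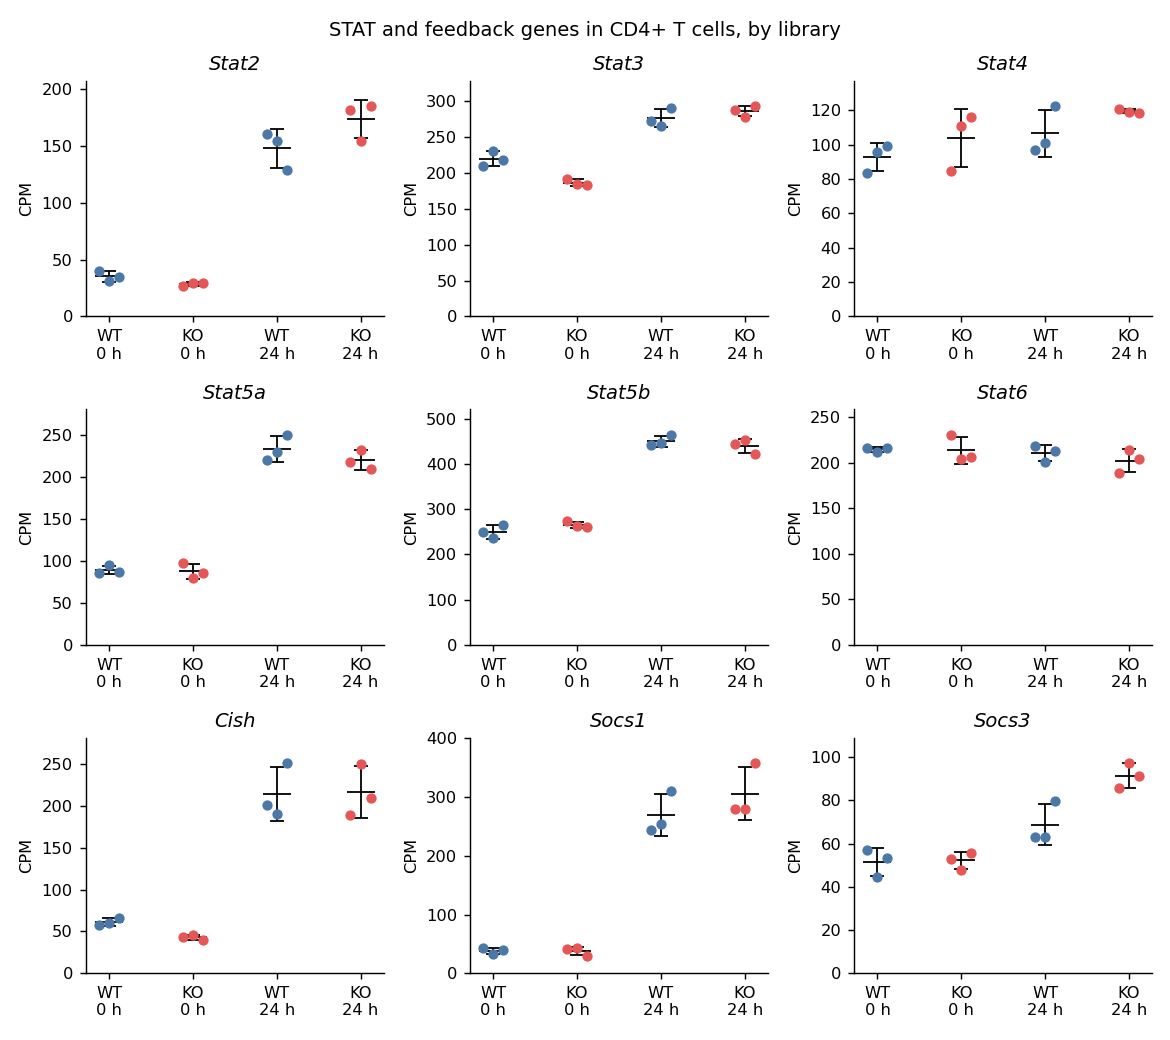
RNA level of each member (y axis, CPM, from 0) in the 12 libraries, by group (x axis). Points are libraries, and black marks are the mean with SD (n = 3). The 24 h libraries of Stat2, Stat5a, Stat5b, Cish and Socs1 all lie above the 0 h libraries, and the KO 0 h libraries of Cish lie below the WT 0 h libraries.

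Among the feedback genes Socs1, whose protein inhibits JAK kinases directly, rose most. Its level was 43.0, 33.0 and 39.7 CPM in the 3 libraries of unstimulated WT cells and 244, 254 and 310.1 CPM in those stimulated. Unstimulated KO cells had 40.8, 43.1 and 30.3 CPM, and stimulated ones 279.9, 279.9 and 357 CPM. The times were far apart in both genotypes, and the genotypes overlapped at each time. The rise was log2 2.81 in WT (SE 0.125, edgeR QL, BH-adjusted p = 7.15e-19), a fold of 7.01, and log2 2.99 in KO (SE 0.126, edgeR QL, BH-adjusted p = 1.53e-19), a fold of 7.96.

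Cish encodes an SH2 protein that is induced by STAT5 and dampens interleukin-2 and T cell receptor signalling. Unstimulated WT cells had 57.2, 60.5 and 66.6 CPM of Cish, and stimulated ones 201, 190.5 and 251 CPM. For KO cells the values were 43.2, 46.3 and 40.3 CPM before stimulation and 189, 249.9 and 209 CPM after it. Every 24 h library stood above every 0 h library, and at 0 h every KO library stood below every WT library, while at 24 h the genotypes overlapped. Cish rose by log2 1.80 in WT (SE 0.108, edgeR QL, BH-adjusted p = 1.14e-18) and by log2 2.32 in KO (SE 0.112, edgeR QL, BH-adjusted p = 5.17e-22).

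Socs3, which binds the shared receptor chain of the interleukin-6 family and restrains STAT3, rose less. In WT cells it had 57.0, 44.5 and 53.4 CPM before stimulation and 63.1, 63.3 and 79.8 CPM after it. In KO cells it had 53.1, 47.9 and 55.7 CPM before stimulation and 85.5, 97.2 and 91.3 CPM after it. The 24 h libraries were above those of 0 h in each genotype, by a narrow gap in WT, and at 24 h every KO library was above every WT library. The rise was log2 0.42 in WT (SE 0.118, edgeR QL, BH-adjusted p = 0.00358) and log2 0.81 in KO (SE 0.118, edgeR QL, BH-adjusted p = 2.33e-07). In WT it missed the threshold without WT 24 h replicate 3, at log2 0.29 (edgeR QL, BH-adjusted p = 0.0626), and it passed in the other 5 such refits and under the 7 other settings.

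Of the STAT genes Stat2, the partner of IRF9 in the interferon response, rose most. Unstimulated WT cells had 40.0, 30.9 and 34.7 CPM, and stimulated ones 161, 154 and 129 CPM. The KO libraries had 26.7, 29.7 and 29.2 CPM before stimulation and 182, 155 and 185 CPM after it. The KO libraries were all below the WT libraries at 0 h, and at 24 h the genotypes overlapped. The rise was log2 2.07 in WT (SE 0.113, edgeR QL, BH-adjusted p = 3.31e-20) and log2 2.61 in KO (SE 0.116, edgeR QL, BH-adjusted p = 2.44e-23).

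Stat5a and Stat5b encode the closely related transducers of interleukin-2 signals. Stat5a had 85.6, 94.9 and 87.4 CPM in unstimulated and 221, 231 and 251 CPM in stimulated WT cells, and 97.9, 80.2 and 86.0 CPM in unstimulated and 218, 233 and 209.8 CPM in stimulated KO cells. Stat5b had 249, 236 and 266 CPM in unstimulated and 441, 445 and 464 CPM in stimulated WT cells, and 273, 262 and 259.6 CPM in unstimulated and 445, 453 and 422 CPM in stimulated KO cells. For both genes the times were apart and the genotypes overlapped at each time. Stat5a rose by log2 1.39 in WT (SE 0.0928, edgeR QL, BH-adjusted p = 4.80e-17) and by log2 1.32 in KO (SE 0.0936, edgeR QL, BH-adjusted p = 3.85e-16). Stat5b rose by log2 0.85 in WT (SE 0.0806, edgeR QL, BH-adjusted p = 3.85e-12) and by log2 0.73 in KO (SE 0.0808, edgeR QL, BH-adjusted p = 2.63e-10).

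The share of Stat5a within the pair does not depend on scaling between libraries. Stat5a reads made up 26.4% ± 2.10 (SD, n = 3) of Stat5a plus Stat5b reads in WT 0 h and 34.2% ± 0.862 in WT 24 h. In KO the share was 24.9% ± 1.48 at 0 h and 33.4% ± 0.545 at 24 h. Every 24 h library, at 32.9% to 35.1%, was above every 0 h library, at 23.4% to 28.7%. The difference between times was 7.84 percentage points in WT and 8.44 in KO, each with an exact permutation p = 0.1 (two-sided), below which 3 against 3 libraries cannot go, and an adjusted p = 0.2 over the 4 comparisons made. Between genotypes the share differed by -1.44 points at 0 h (KO minus WT, two-sided exact permutation p = 0.5) and by -0.839 points at 24 h (two-sided exact permutation p = 0.2), which was within or near the spread of the libraries. Because reads that fit both genes were listed apart, the shares describe the parts of the genes that differ. Transcript lengths differ too, so they are not shares of molecules.

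**Figure D2:**
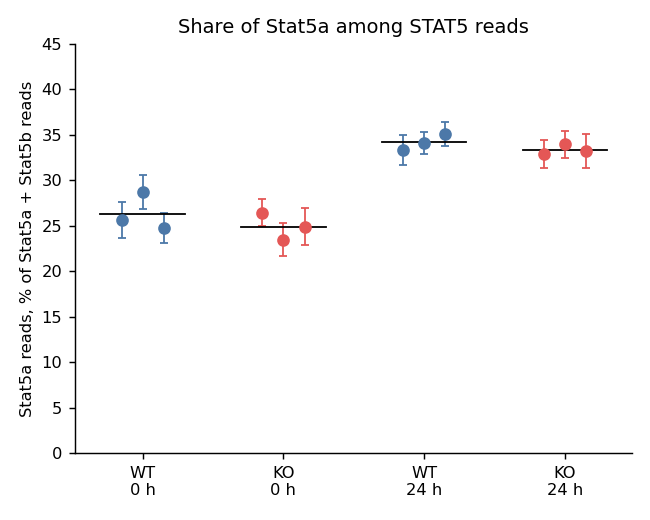
Stat5a reads as a percentage of Stat5a plus Stat5b reads (y axis, from 0) in each library, by group (x axis). Points are libraries with 95% exact binomial (Clopper-Pearson) intervals for counting error only, and lines are group means. The 6 libraries of 24 h lie between 32.9% and 35.1% and the 6 of 0 h between 23.4% and 28.7%.

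Stat3, which relays cytokines of the interleukin-6 family, rose modestly. Its WT libraries had 210.3, 231 and 218 CPM before and 272, 266 and 291 CPM after stimulation, and its KO libraries 192, 184 and 183 CPM before and 288, 278 and 293 CPM after it. The 24 h libraries were above the 0 h libraries in both genotypes, and at 0 h the KO libraries were below the WT libraries. Stat3 rose by log2 0.33 in WT (SE 0.0814, edgeR QL, BH-adjusted p = 0.000930) and by log2 0.62 in KO (SE 0.0825, edgeR QL, BH-adjusted p = 3.37e-08).

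Stat4 and Stat6 did not pass over time in either genotype. Stat4, which relays interleukin-12, ranged from 83.3 to 122 CPM over all libraries, with a log2 fold change of 0.20 in WT (95% interval -0.02 to 0.42, edgeR QL, BH-adjusted p = 0.136) and 0.21 in KO (95% interval -0.01 to 0.43, edgeR QL, BH-adjusted p = 0.124). In KO all Stat4 libraries of 24 h were above those of 0 h, as were those of 23.9% of all genes. Without KO 0 h replicate 3, Stat4 passed in KO at log2 0.32 (edgeR QL, BH-adjusted p = 0.0273), and without each of the others its adjusted p was up to 0.496. Stat6, which relays interleukin-4, ranged from 189 to 231 CPM over all libraries, with a log2 fold change of -0.03 in WT (95% interval -0.20 to 0.14, edgeR QL, BH-adjusted p = 0.818) and -0.08 in KO (95% interval -0.25 to 0.09, edgeR QL, BH-adjusted p = 0.484). These intervals bound a change of Stat6 to well under that of Stat5a or Stat2.

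**Figure D3:**
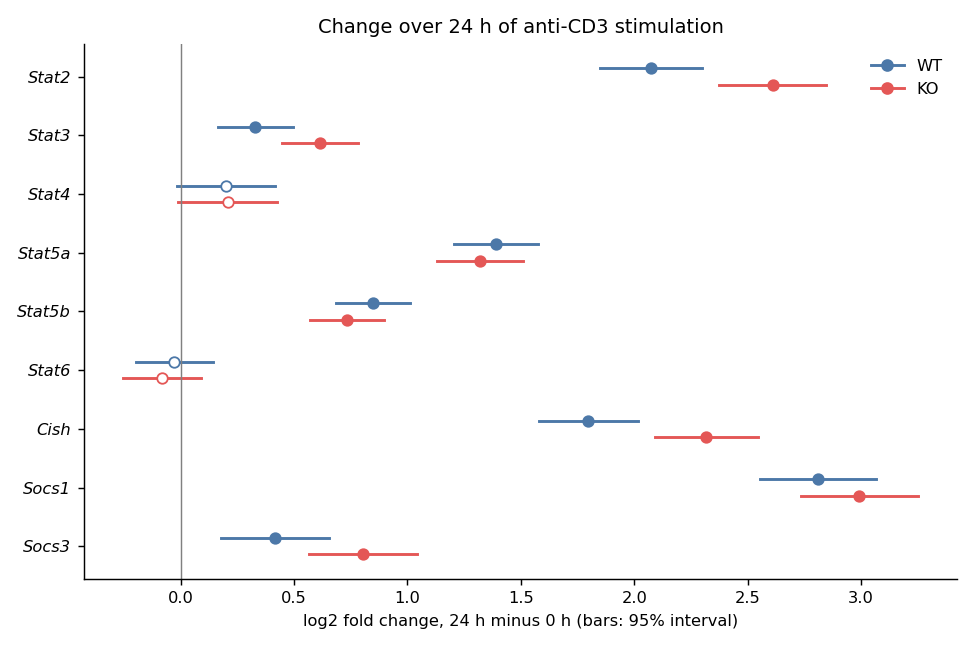
Log2 fold change of each member from 0 h to 24 h of stimulation (x axis) in WT and KO cells, with 95% intervals from the edgeR fit of 12 libraries. Filled points passed at an adjusted p below 0.05. Socs1 and Stat2 lie farthest to the right, and Stat4 and Stat6 have open points in both genotypes.

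To compare levels between genes, CPM were divided by the length of each gene's principal transcript in GENCODE (CPM per kb), so this order depends on the transcript taken for each gene. In WT 0 h Stat6 was highest, at 56.8 ± 0.741 CPM per kb (SD, n = 3), above Stat3 at 48.7 ± 2.33 and Stat5b at 48.0 ± 2.92, whose ranges overlapped. Stat4 followed at 31.1 ± 2.79 CPM per kb. Stat5a, Cish and Socs3, at 23.0, 21.6 and 20.2 CPM per kb, overlapped from each to the next, and Socs1 at 13.3 ± 1.75 and Stat2 at 8.01 ± 1.04 were lowest. In WT 24 h Socs1 came first at 92.6 ± 12.3 CPM per kb, overlapping Stat5b at 86.3 ± 2.40, and Cish followed at 75.1 ± 11.2, overlapping Stat5b. Stat3, Stat5a and Stat6 lay between 55.8 and 61.2 CPM per kb with overlaps between neighbours, and Stat4, Stat2 and Socs3 were lowest, at 35.8, 33.6 and 26.9 CPM per kb, each overlapping the next. In KO the order was the same at 24 h. At 0 h KO differed from WT in the order of Stat5b before Stat3 and of Socs3 before Cish. There Stat5b had 50.8 ± 1.35 CPM per kb against 41.3 ± 1.07 for Stat3, and Cish had 15.2 ± 1.06 against 20.5 ± 1.55 for Socs3, with no overlap in either pair.

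Between genotypes 1 of the 9 members passed, Cish at 0 h, and no member passed at 24 h. At 0 h Cish was lower in KO, with 43.3 ± 3.01 CPM against 61.4 ± 4.77 CPM in WT (SD, n = 3), a log2 fold change of -0.51 (SE 0.115, 95% interval -0.74 to -0.28, edgeR QL, BH-adjusted p = 0.0265) and a fold of 0.704. Over all genes tested at 0 h, 0.118% passed as higher and 0.228% as lower in KO. The Cish call was kept in 2 of the 6 refits that each left out 1 library. It was lost without WT replicate 3 (edgeR QL, BH-adjusted p = 0.128), without KO replicate 1 (BH-adjusted p = 0.0764), without KO replicate 2 (BH-adjusted p = 0.0512) and without KO replicate 3 (BH-adjusted p = 0.183), with log2 fold changes of -0.56 to -0.44 over the 6 refits that each left out 1 library. It was also lost in a fit of the 0 h libraries alone (edgeR QL, BH-adjusted p = 0.0847), and it was kept under the other 6 settings, DESeq2 among them. Over all these alternatives the adjusted p ranged from 0.00146 to 0.183.

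Cish, Stat3 and Stat2 were the 3 members whose KO and WT libraries at 0 h did not overlap, all lower in KO, as were 6.37% of all genes, while 6.04% were higher without overlap. They were also the 3 members with an unadjusted p below 0.05, as in 8% of all genes. Stat3 had a log2 fold change of -0.24 (95% interval -0.40 to -0.07, edgeR QL, BH-adjusted p = 0.350) and Stat2 of -0.30 (95% interval -0.55 to -0.06, edgeR QL, BH-adjusted p = 0.485), and neither passed. The other 6 members lay between log2 -0.02 and 0.16, with BH-adjusted p of 0.782 to 0.999 (edgeR QL). Their 95% intervals reached down to -0.28, for Socs1, and up to 0.37, for Stat4.

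Some markers of other cells also differed between genotypes at 0 h. The CD8 T cell markers Cd8a and Cd8b1 summed to 17.3 to 18.5 CPM in WT and 30.8 to 35.8 CPM in KO. Nearly all of this was Cd8b1, which was higher in KO by log2 0.85 (edgeR QL, BH-adjusted p = 0.0176). Cd8a had too few reads for the test, with 2 to 8 in WT and 3 to 12 in KO. Its mean levels were 0.680 and 1.16 CPM, and the genotypes overlapped. Of the B cell markers Cd22 was lower in KO, at log2 -2.49 (edgeR QL, BH-adjusted p = 0.0118). Cd79a, at log2 0.04, and Cd79b, at log2 0.28, did not pass. Cd22 had 35 to 86 reads in WT and 7 to 11 in KO. It passed the filter on low counts through its WT 0 h libraries, so it could be called lower only. Cd22 lies on chromosome 7, as does Sirt2, and the part of this in its difference was not tested. The sum of 5 B cell markers overlapped, at 21.0 to 29.2 CPM in WT and 16.1 to 26.9 CPM in KO. The 3 NK cell markers summed to 23.3 to 29.6 CPM in WT and 31.5 to 40.7 CPM in KO. Of these Klrb1c and Klrd1 did not pass (edgeR QL, BH-adjusted p = 0.706 and 0.708), and Ncr1 had too few reads for the test. The 5 myeloid markers summed to 8.01 to 10.3 and 6.46 to 12.05 CPM, with Cd14 at 0 in both groups. The part of all these other cells in the level of Cish was not tested. The CD4+ T cell markers summed to 4817 to 5227 CPM in WT and 4946 to 5696 CPM in KO. Foxp3, which encodes the factor of regulatory T cells, had 270 to 361 CPM in WT and 241 to 301 CPM in KO. It did not pass (log2 -0.24, edgeR QL, BH-adjusted p = 0.706), and the part of regulatory T cells in the level of Cish was not tested.

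At 24 h Socs3 was the member that differed most between genotypes, with 91.3 ± 5.84 CPM in KO and 68.7 ± 9.60 CPM in WT (SD, n = 3). All 3 KO libraries lay above all WT ones, as they did for 5.74% of all genes, while 7.19% lay below. The log2 fold change was 0.41 (SE 0.116, 95% interval 0.18 to 0.64), which did not pass (edgeR QL, BH-adjusted p = 0.184). It passed at log2 0.53 without WT replicate 3 (edgeR QL, BH-adjusted p = 0.0494), while without the other libraries the adjusted p reached 0.643. Stat2 had a log2 fold change of 0.23 (95% interval 0.03 to 0.44, edgeR QL, BH-adjusted p = 0.626). The other 7 members lay between log2 -0.09 and 0.18, Cish among them at 0.01 (95% interval -0.19 to 0.22). At 24 h 0.182% of all genes passed as higher and 0.0911% as lower. DESeq2 called 0 members at 24 h as well, and 2 members, Socs3 and Stat2, had an unadjusted p below 0.05, as did 7.06% of all genes.

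**Figure D4:**
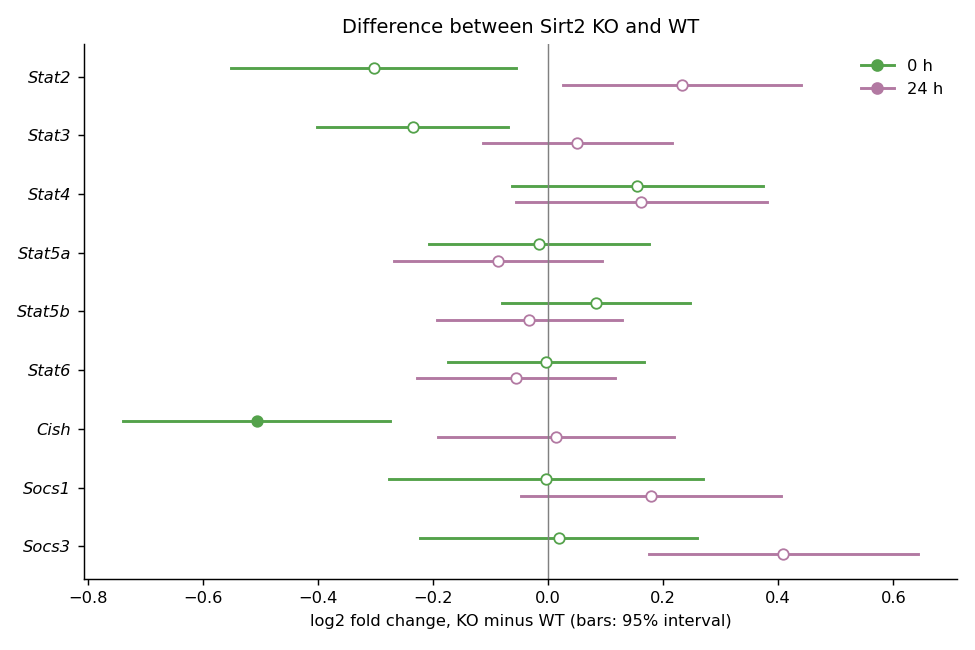
Log2 fold change of each member in KO against WT (x axis) at 0 h and at 24 h, with 95% intervals from the edgeR fit of 12 libraries. The filled point, Cish at 0 h, is the 1 value that passed at an adjusted p below 0.05, and the interval of Socs3 at 24 h lies above 0 without passing the adjusted test.

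The test of the interaction, which asks whether the change over time differed between genotypes, called no member in edgeR or DESeq2 and 1 gene of all tested, 0.00911% as lower and 0% as higher. The rise was larger in KO than in WT by log2 0.54 for Stat2 (95% interval 0.21 to 0.86, edgeR QL, BH-adjusted p = 0.580), by 0.52 for Cish (95% interval 0.21 to 0.83, edgeR QL, BH-adjusted p = 0.538), by 0.39 for Socs3 (95% interval 0.05 to 0.72, edgeR QL, BH-adjusted p = 0.910) and by 0.29 for Stat3 (95% interval 0.05 to 0.52, edgeR QL, BH-adjusted p = 0.887). These 4 of the 9 members had an unadjusted p below 0.05, as did 5.24% of all genes, and they failed the adjustment. For the STAT5 pair the difference was log2 -0.07 for Stat5a (95% interval -0.33 to 0.19) and -0.12 for Stat5b (95% interval -0.34 to 0.11). The interaction is the difference between genotypes at 24 h less that at 0 h, so it is not separate from them. KO minus WT was log2 -0.51 at 0 h and 0.01 at 24 h for Cish, and -0.24 and 0.05 for Stat3. For Stat2 it was -0.30 and 0.23, and for Socs3 0.02 and 0.41.

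The rest of the pathway moved in both directions over time, and its members were described from lists of known genes, some of which share members, without a test of the lists. Beside each count of list genes over time stand the shares of all genes tested. These were 20.2% higher and 20.5% lower in WT, and 19.4% higher and 21% lower in KO. Of 18 cytokine ligands 8 had enough reads to be tested. Csf2, Il2, Il4, Il13 and Lif passed as higher at 24 h in both genotypes. Il2, Il13 and Csf2 had at most 9 reads in any 0 h library and passed the filter on low counts through their 24 h libraries, so they could be called in 1 direction only. Il2, the growth factor that signals through STAT5, rose from 0.225 to 4.25 CPM in WT and from 0.690 to 6.65 CPM in KO, which is still a low level. Il13 went from 0.0577 to 14.2 CPM in WT and from 0.359 to 19.0 CPM in KO. Lif, a ligand that signals through STAT3, rose from 2.71 to 25.9 CPM in WT and from 2.12 to 23.3 CPM in KO. Il21, among the 10 ligands with too few reads for the test, had mean levels of 2.43 CPM at 0 h and 0.737 CPM at 24 h in WT, and of 1.55 and 0.0582 CPM in KO.

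Of 19 tested cytokine receptor chains 6 rose and 11 fell in WT, and 6 rose and 10 fell in KO. Il2ra, the high-affinity chain for interleukin-2, rose from 202 ± 18.1 to 739 ± 88.0 CPM in WT and from 183 ± 13.6 to 683 ± 49.6 CPM in KO (SD, n = 3). The interleukin-12 receptor gene Il12rb2 rose from 8.01 to 36.4 CPM in WT and from 8.88 to 32.4 CPM in KO. Ifngr1, a receptor chain for interferon gamma, rose by log2 1.94 in WT and 1.88 in KO. Il12rb1 rose by log2 1.95 in WT and also passed as higher in KO, from 15.6 to 49.8 CPM. Il9r, the receptor for interleukin-9, fell from 2.24 to 0.314 CPM in WT and from 2.97 to 0.0582 CPM in KO. It had 10 to 26 reads in WT and 15 to 23 in KO at 0 h, and at most 7 in any 24 h library. Il9r passed the filter on low counts through its 0 h libraries, so it could be called lower only. Without WT 0 h replicate 3 its fall in WT missed the threshold (edgeR QL, BH-adjusted p = 0.0569), and it passed in the other 5 such refits.

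Among the 4 JAK kinase genes Jak2 rose, from 116 ± 5.65 to 238 ± 15.9 CPM in WT and from 109 ± 9.80 to 238 ± 7.14 CPM in KO (SD, n = 3). Jak1, which serves most T cell cytokine receptors, fell by log2 0.58 in WT and by log2 0.57 in KO. Jak3, the partner of the common gamma chain, fell by log2 0.46 in WT cells (edgeR QL, BH-adjusted p = 0.000185) and did not pass in KO cells. The list median was log2 -0.32 in WT and -0.12 in KO.

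The other SOCS genes moved less than Socs1. Of 5, Socs5 and Socs7 rose in WT and Socs2 and Socs7 in KO, and 0 fell. Socs7 rose by log2 0.43 in WT and 0.64 in KO, and in WT it missed the threshold without WT 0 h replicate 3 (edgeR QL, BH-adjusted p = 0.0623) or WT 24 h replicate 2 (BH-adjusted p = 0.0531). Socs2, a STAT5 target that restrains growth hormone signals, was low, at 5.07 ± 0.998 CPM in KO 0 h and 9.95 ± 2.17 CPM in KO 24 h (SD, n = 3). Its rise was lost without KO 0 h replicate 2 (edgeR QL, BH-adjusted p = 0.0761) or KO 24 h replicate 3 (BH-adjusted p = 0.103). Of 11 other inhibitors 5 rose and 1 fell in WT, and 3 rose and 1 fell in KO, with medians of log2 0.20 and 0.09. The phosphatase gene Ptpn6 fell by log2 0.92 in WT and by log2 0.99 in KO, and Usp18, an interferon-induced brake on the type I interferon receptor, rose by log2 1.07 and 0.76.

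**Figure D5:**
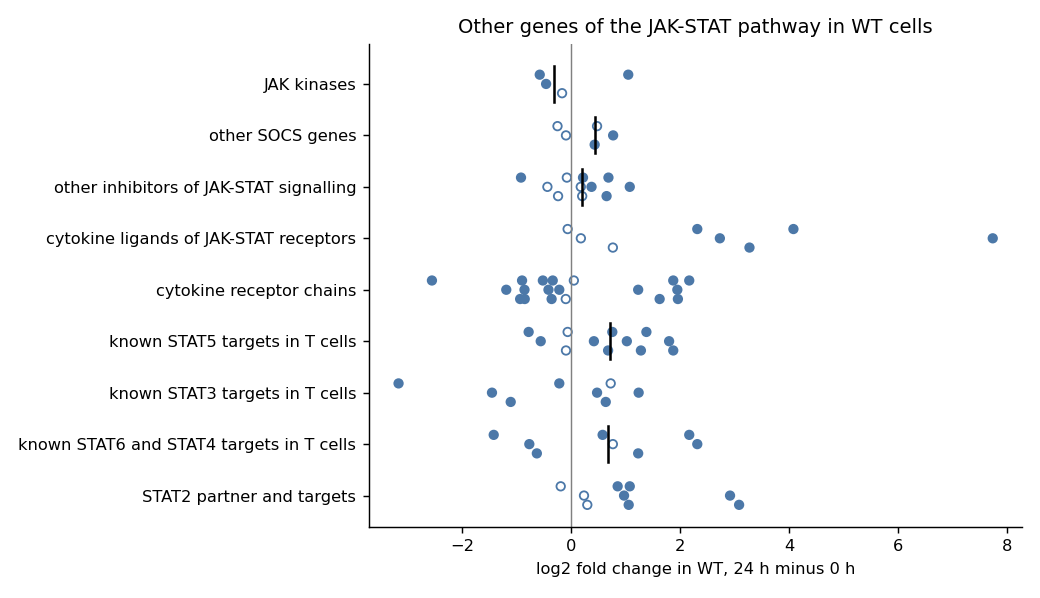
Log2 fold change from 0 h to 24 h in WT cells (x axis) of the tested genes of 9 pathway lists (y axis). Points are genes, filled where they passed at an adjusted p below 0.05, and black lines are the medians of the lists in which every gene was tested, with 0.71 for STAT5 targets and -0.32 for JAK kinases. The point farthest to the right is Il13, which had 1 read in the WT 0 h libraries, so its position depends on the fit.

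Among known targets, those of STAT5 rose in 8 and fell in 2 of 12 in WT, and rose in 9 and fell in 2 in KO, with medians of log2 0.71 and 0.85. Of all genes 20.2% rose and 20.5% fell in WT, and 19.4% rose and 21% fell in KO. The survival gene Bcl2 rose by log2 1.38 in WT and 1.71 in KO, the kinase gene Pim2 by log2 1.28 and 1.62, and Gzmb, which encodes granzyme B, by log2 1.79 and 1.47. Foxp3, the factor of regulatory T cells, was 1 of those that fell, from 310 to 181 CPM in WT and from 261 to 154 CPM in KO. Partner and targets of STAT2 rose in 6 of 9 in WT and 7 of 9 in KO, and 0 of those tested fell. Mx1, the other gene of that list, had too few reads for the test, with mean levels of 1.34 CPM at 0 h and 0.868 CPM at 24 h in WT and of 1.79 and 0.0610 CPM in KO. Oasl2 and Ifit3, both interferon-stimulated, rose by log2 3.08 and 2.91 in WT and by log2 3.52 and 3.24 in KO.

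Targets of STAT3 were mixed, with 3 higher and 4 lower of 8 in WT, and 3 higher and 3 lower in KO, Il21 being the 1 not tested. The AP-1 gene Junb fell by log2 3.17 in WT and by log2 3.27 in KO, the factor gene Maf fell by log2 1.46 in WT and fell in KO, and Bcl6 rose by log2 1.24 and 1.10. Of 8 targets of STAT6 and STAT4, 4 rose and 3 fell in WT and 3 rose and 2 fell in KO, with medians of log2 0.67 and 0.78. Il4ra, the interleukin-4 receptor chain that STAT6 induces, rose by log2 1.23 in WT and 1.62 in KO, and Il4 by log2 2.31 and 2.00. The values of all these changes in the text are for genes that passed (edgeR QL, BH-adjusted p of 1.75e-28 for Junb to 0.0206 for Socs2).

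Between genotypes 1 gene of the pathway lists passed, Pim2, a STAT5 target that encodes a survival kinase, and at 24 h none did. Of all genes tested, 0.118% passed as higher and 0.228% as lower in KO at 0 h, and 0.182% and 0.0911% at 24 h. At 0 h Pim2 had 52.1 to 61.4 CPM in KO and 72.5 to 79.7 CPM in WT, without overlap (log2 -0.45, SE 0.101, edgeR QL, BH-adjusted p = 0.0209). Its call was lost without WT replicate 1 (edgeR QL, BH-adjusted p = 0.119), WT replicate 3 (BH-adjusted p = 0.0550), KO replicate 1 (BH-adjusted p = 0.117) or KO replicate 2 (BH-adjusted p = 0.134), and in a fit of the 0 h libraries alone (BH-adjusted p = 0.110), within a range of 0.00647 to 0.134 over all alternatives. The 12 STAT5 targets had a median log2 fold change of -0.16 in KO at 0 h beside 0.00 over all genes. Medians of the other lists ran from -0.21 for the other SOCS genes to 0.16 for the cytokine ligands. The STAT3 targets had -0.14 and the JAK kinases -0.11, so a value near -0.16 was not particular to STAT5 targets. The interaction called 0 genes of these lists.

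The genes most like each member that rose were found by the root mean square difference of log2 CPM, centred per gene over the 12 libraries, which differ mainly by time. Cish was nearest to Mthfd2 (0.140) and Shmt2 (0.169), 2 genes of mitochondrial one-carbon metabolism. Socs1 was nearest to Wars (0.167), the interferon-inducible tryptophanyl-tRNA synthetase, and to Gbp7 (0.183), a guanylate-binding protein gene of a family with similar copies. Stat2 was nearest to N4bp1 (0.182) and to the calcineurin subunit gene Ppp3cc (0.187). Stat5a was nearest to the translation initiation gene Eif3c (0.0806) and to Rnf19b (0.110), and Stat5b to the adaptor gene Lcp2 (0.0687) and to Cyfip2 (0.0719). Stat3 was nearest to Metap2 (0.0806) and Usp32 (0.0818), and Socs3 to Cnp (0.127) and Hist1h4d (0.136), the latter with near-identical copies.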

How the data were processed

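The deposited values were raw counts of reads for each gene symbol in 12 libraries of 4 groups. Per the submitters' processing notes, STAR 2.6.0c, DESeq and the build hg19 were used. That build is human while the symbols are of mouse genes, so the build of the counts is uncertain. The sources used here name no counter, annotation or strand setting. Per the labels' protocols, total RNA was made into libraries with a NuGen Ovation kit, with depletion of ribosomal RNA by probes. The 5 entries that name no gene, with 51.1% to 62.3% of listed reads, entered neither library sizes nor tests. The ribosomal RNA precursor Rn45s held 7.95% to 17.5% of gene reads.

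Groups and replicate numbers were taken from sample titles. Genes were kept with edgeR's filterByExpr (minimum count 10, minimum total 15). The test was edgeR 4.0.16 (R 4.3.3) with TMM factors, robust dispersion and 1 quasi-likelihood fit of the 4 groups without covariates, for 5 comparisons, checked on simulated counts. SE was the log2 fold change divided by the root of F. Shares of Stat5a were compared with exact permutation tests. Alternatives were DESeq2 1.42.0, other scalings, no filter, Rn45s left out, fits of the groups compared, a replicate block and each library left out. Same-numbered libraries of different groups correlated from -0.0884 to 0.0934 in their deviations from group means, and the numbers were not taken as pairs. Whether the numbers mark batches is not settled by these values. No 2 libraries of a group looked like 1 library deposited again, with chi-square values per gene from 3.23 to 15.7 between them. Counting intervals cover counting error only. All members were named in every comparison, with up to 4 passing genes of the largest change per pathway list and comparison, and the 2 nearest genes of each member that passed. Members, lists and naming rule were chosen with earlier results of these data known. Another gene that the rule takes in is not reported here.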

Additional observations from a re-analysis of the deposited data

How the results depend on the processing

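The rises of the 7 members over time kept their direction and passed under each of the 7 alternative settings in both genotypes, with log2 fold changes of 2.74 to 2.83 for Socs1, 2.01 to 2.10 for Stat2, 1.73 to 1.82 for Cish, 1.33 to 1.41 for Stat5a, 0.78 to 0.87 for Stat5b, 0.35 to 0.44 for Socs3 and 0.27 to 0.35 for Stat3 in WT. The count of members lower in KO at 0 h went from 1 to 0 in the fit of the 2 groups compared, which has fewer libraries, and ranged from 0 to 1 when each library was left out. The count of members higher in KO at 24 h ranged from 0 to 1 when each library was left out. With the replicate number as a block no count of members called changed, Cish at 0 h had a log2 fold change of -0.50 (BH-adjusted p = 0.0416), and Socs1 at 0 h changed sign, to 0.0086. Under the block, the share of Stat5a differed by the same points as in the main comparison, with an exact sign-flip p of 0.25 at the least. Of 18 same-numbered pairs 0 had a correlation over 0.1, and 7 of 12 libraries correlated best with one of their own number.

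Leaving out 1 library changed the sign of values near 0 that had not passed. At 0 h between genotypes they ranged from -0.11 to 0.046 for Stat5a, from -0.071 to 0.027 for Stat6, from -0.11 to 0.12 for Socs1 and from -0.084 to 0.088 for Socs3. At 24 h Cish ranged from -0.11 to 0.14. Over time Stat6 ranged from -0.050 to 0.0086 in WT and from -0.12 to 0.011 in KO. For the interaction Stat4 ranged from -0.11 to 0.12, Stat5a from -0.12 to 0.033 and Stat6 from -0.099 to 0.023. The cause was not tested.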
